A study of Mus musculus with 12 samples.

Results

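The interferon response genes described here are 41 mouse genes named by symbol, of 50559 genes listed in each deposited count table, and all 41 were found. They were measured in liver RNA of C57BL/6N mice, with 3 libraries in each of 4 groups. NCD mice ate normal chow for 12 weeks, and HFD mice ate for the same time a diet that drew 60% of its energy from fat. HFD+C1 and HFD+C2 mice ate the high-fat diet too and had 5 mg/kg of C1 or C2 injected into the peritoneum each day for 12 weeks. The series title calls C1 and C2 inhibitors of CYP4A, a family of cytochrome P450 enzymes that hydroxylate fatty acids. The labels give no structure for either compound and do not say whether NCD and HFD mice received injections of vehicle. They number the libraries as biological replicates without saying whether each came from 1 animal, so p-values measure the spread between libraries.

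Interferons are cytokines that put cells into an antiviral state. Type I interferons act through the receptor IFNAR and the kinases JAK1 and TYK2 to form a complex that holds STAT2 and IRF9 and binds the interferon-stimulated response element (ISRE) in gene promoters. Interferon gamma acts through another receptor on the gamma-activated site (GAS) and induces the transcription factor IRF1. In liver, hepatocytes and the resident macrophages, called Kupffer cells, both respond to interferons. The genes were grouped by role into pathogen sensors, transcription factors, the ubiquitin-like modifier Isg15 with its protease Usp18, IFIT proteins, OAS proteins, Mx GTPases, other effectors, guanylate-binding proteins (GBP) with immunity-related GTPases (IRG), antigen processing genes, and the chemokine Cxcl10.

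Reads counted in genes ranged from 4281210 (NCD 2) to 32124248 (HFD 1), where the number after a group is the replicate. A floor of 3 counts equalled 0.633 CPM (counts scaled to a common library total) in NCD 2 and 0.0996 CPM in HFD 1; it covers counting error only. The share of reads not counted in genes was 58.2% in NCD 1 and 47.1% in HFD+C2 1, against 27.3% to 40.7% in the other 10 libraries. When replicate libraries were compared by their counts, the chi-square statistic per gene was 456 and 390 for HFD+C2 1 against the others of its group, and 13.4 to 105 for the remaining pairs of replicates. Hepatocyte markers summed to between 28787 CPM in NCD 1 and 147363 CPM. T cell, natural killer cell, plasmacytoid dendritic cell and neutrophil markers each summed to at most 7.35 CPM, and the T cell receptor gene Trac had 0 counts in every library. All CPM values were scaled by TMM, which corrects for differences in library composition, over the 12 libraries.

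Promoter sequence was examined first because the members are defined by a response that runs through promoter elements. RefSeq promoters of the mouse build GRCm38.p6, from 250 bases before to 50 bases after the start site, matched 31 of the 41 genes. A core ISRE written as GAAANNGAAA, on either strand, lay in the window of 18 of the 31 genes (58.1%), against 3.99% of all 27025 genes with a window. A GAS written as TTCNNNGAA, which reads the same on both strands, lay in 9 of the 31 (29.0%), against 9.55% of all genes. By role, the ISRE letters were found in 6 of 6 GBP and IRG genes, 3 of 4 IFIT genes, 3 of 5 OAS genes and 0 of 3 antigen processing genes. These windows are not all independent: those of Psmb9 and Tap1 overlap on opposite strands, and Igtp and Irgm2 are nearly alike around the motif. A match describes letters in a window and not a site in use.

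The GBP and IRG windows are shown because all of these genes were higher in HFD than in NCD. Each runs 5′ to 3′ on the strand of its gene, and capitals mark the letters of an ISRE or GAS. Where the motif lies on the opposite strand its letters read TTTCNNTTTC. The windows are Gbp2 at chr3:142620584-142620633, Gbp3 at chr3:142559979-142560034, Gbp7 at chr3:142530263-142530312, Igtp at chr11:58199502-58199551 and Irgm2 at chr11:58214893-58214942 on the plus strand, and Irgm1 at chr11:48871421-48871470 on the minus strand.
Gbp2: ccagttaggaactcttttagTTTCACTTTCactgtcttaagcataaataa
Gbp3: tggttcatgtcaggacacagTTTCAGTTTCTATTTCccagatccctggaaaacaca
Gbp7: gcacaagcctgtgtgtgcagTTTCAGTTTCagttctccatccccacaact
Igtp: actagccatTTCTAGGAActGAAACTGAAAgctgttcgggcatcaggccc
Irgm2: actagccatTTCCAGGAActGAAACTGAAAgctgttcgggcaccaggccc
Irgm1: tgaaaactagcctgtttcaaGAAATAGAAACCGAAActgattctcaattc
In Igtp and Irgm2 a GAS lay just before the ISRE, and in Gbp3 and Irgm1 a pair of ISRE matches overlapped.

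The IFIT, Isg15 and Irf1 windows are shown because Ifit3 and Irf1 passed the diet test in opposite directions. Ifit3 lies at chr19:34583353-34583436, Ifit3b at chr19:34607749-34607832 and Ifit1 at chr19:34640765-34640833 on the plus strand, Isg15 at chr4:156200855-156200916 on the minus strand, and Irf1 at chr11:53769904-53769952 on the plus strand.
Ifit3: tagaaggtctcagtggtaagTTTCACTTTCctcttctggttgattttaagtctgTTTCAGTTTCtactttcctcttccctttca
Ifit3b: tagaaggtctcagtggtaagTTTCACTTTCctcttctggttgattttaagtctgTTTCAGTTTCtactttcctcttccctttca
Ifit1: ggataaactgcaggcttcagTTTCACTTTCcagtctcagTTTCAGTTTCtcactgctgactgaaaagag
Isg15: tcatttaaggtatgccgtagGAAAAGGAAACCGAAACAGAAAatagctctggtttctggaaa
Irf1: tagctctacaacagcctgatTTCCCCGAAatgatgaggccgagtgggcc
The windows of Ifit3 and its neighbour Ifit3b were identical over 84 bases. The Irf1 window held a GAS and no ISRE letters. Xaf1, which passed the diet test and rose, had neither motif in its window. Igtp, Irgm2 and Gbp7 held a GAS and were higher in HFD, while Oas3 held ISRE letters and was lower. Whether the letters go with the direction of change was not tested. The transcripts of Ifit3 and Ifit3b are near copies as well: 51.2% of the 50-base stretches of Ifit3 occurred in Ifit3b, and 57.6% of those of Oas1a occurred in Oas1g. How the authors' counting split reads between such copies is not stated, so the levels of these 4 genes are uncertain.

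Divided by the length of the longest coding transcript (GENCODE M21), the mean level over the 12 libraries was highest for Bst2, which tethers budding virus to the cell surface, at 109.6 CPM per kilobase. Ifi27 followed at 56.6, the immunity-related GTPase Iigp1 at 44.6 and the immunoproteasome subunit Psmb8 at 39.8 CPM per kilobase. At the other end of the same scale were Mx1 at 0.219, Oas3 at 0.155 and Oas2 at 0.133 CPM per kilobase. In reads, Oas2 had 4 to 19 and Oas1g 4 to 20 in any library, so counting error weighs on both.

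**Figure D1:**
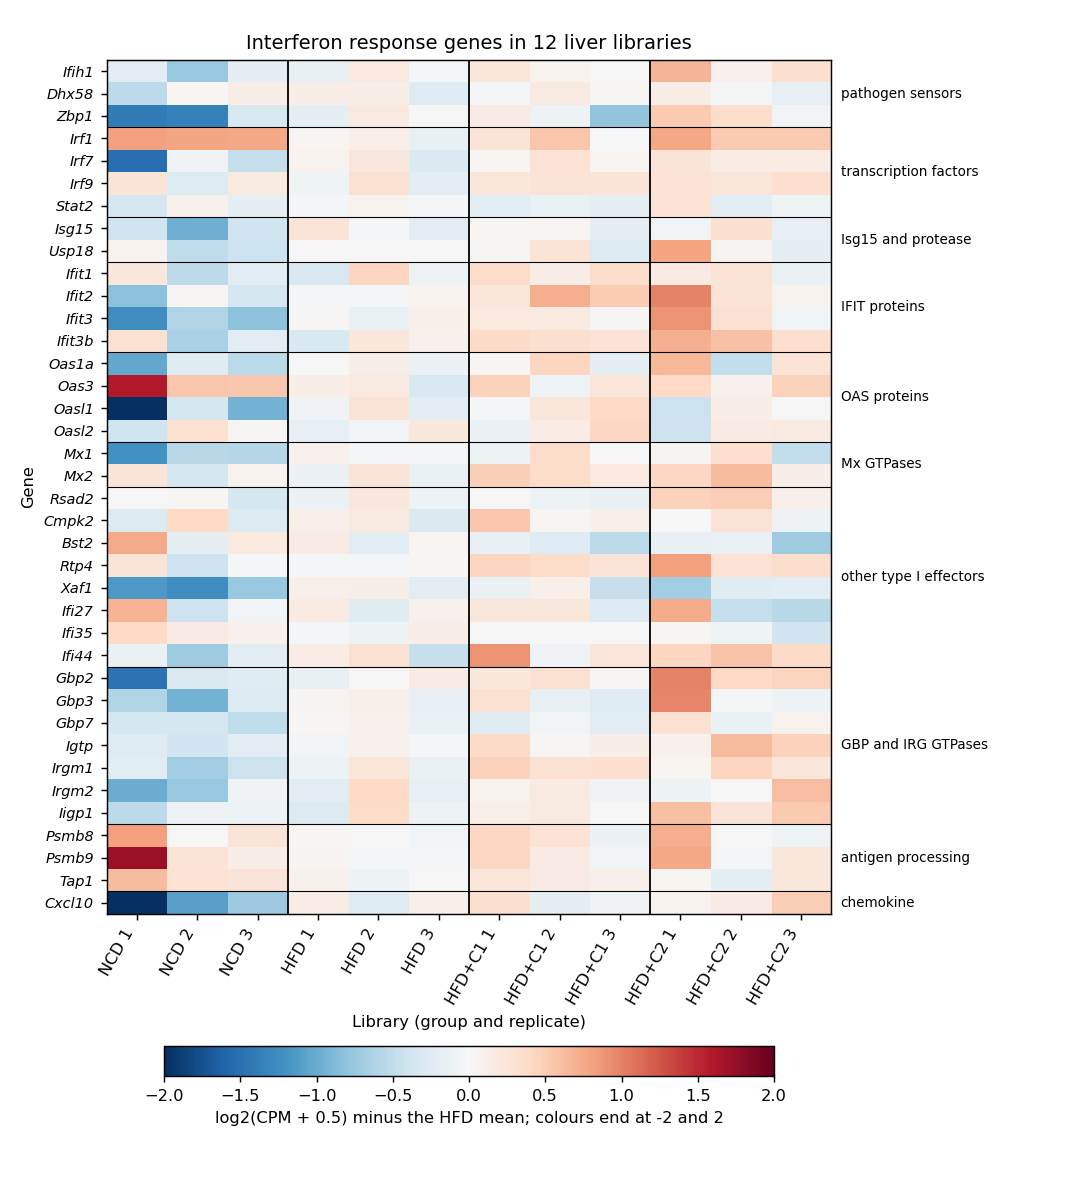
Each row is 1 of the 38 interferon response genes tested in all 4 comparisons, ordered by role, and each column is 1 of the 12 libraries. Colour gives log2(CPM + 0.5) minus the mean of the HFD libraries, with colours ending at -2 and 2. Irf1, Oas3, Ifi35, Psmb9 and Tap1 lie above the HFD mean in all 3 NCD libraries, and HFD+C2 1 is the highest library for 14 of all 41 genes. The share of genes outside the list that were highest in that library was not counted.

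High-fat diet was compared with chow first. Of the 39 genes tested, 28 were higher and 11 lower in HFD than in NCD (71.8% higher, against 48.5% of all 13864 genes tested). The test called 3 of them: Ifit3 and Xaf1 rose and Irf1 fell. Over all genes it called 836 (6.03%), of which 2.59% of those tested were higher and 3.44% lower, so the share of called members is close to the background. The median log2 change was 0.28 over the members, 0.14 without HFD 2, and -0.02 over all genes. Some summed cell type markers stood apart between the diets, though the markers of a list did not all go 1 way. The hepatocyte sum was 28787 to 75152 CPM in NCD and 87373 to 104280 CPM in HFD, with Alb its most abundant gene, and 3 of its 6 markers were higher and 3 lower. The cholangiocyte sum was 23.6 to 32.1 and 33.0 to 39.7 CPM, where Spp1 was higher and the other 3 tested were lower. The B and plasma cell sum was 4.01 to 6.53 CPM in NCD and 2.09 to 3.78 CPM in HFD, with 1 of 3 tested markers higher and 2 lower. Of 5 stellate cell markers 4 were higher and Col1a1 was called (adjusted p = 0.00927, edgeR), and of 5 endothelial markers 4 were higher and Lyve1 was called (adjusted p = 0.0361, edgeR). Natural killer cell, plasmacytoid dendritic cell and adipocyte sums were also higher in NCD without overlap, at no more than 3.78 CPM in any library. These sums rest on few reads: the adipocyte sum was 0.422 CPM in NCD 2, where the floor is 0.633 CPM, and 0.033 to 0.041 CPM in HFD. The part of these cell type markers in the diet values of the interferon genes was not tested. In bulk liver, fewer cells of a type and less RNA per cell cannot be told apart.

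Ifit3 encodes a protein that helps IFIT complexes bind viral RNA. Its level was 7.39, 11.8 and 10.03 CPM in NCD 1 to 3 and 18.4, 16.5 and 19.5 CPM in HFD 1 to 3. Every HFD library lay above every NCD library. From a mean of 9.74 ± 2.22 CPM (SD, n = 3) to 18.1 ± 1.51 CPM, the log2 change was 0.93 with an SE of 0.22 (adjusted p = 0.0460, edgeR's quasi-likelihood test, adjusted over all genes by the Benjamini-Hochberg method).

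Xaf1 encodes a factor that opposes the apoptosis inhibitor XIAP. It was read at 2.06, 1.90 and 2.84 CPM in NCD and at 5.54, 5.63 and 4.39 CPM in HFD, again without overlap. The log2 change was 1.17 with an SE of 0.28 (adjusted p = 0.0478, edgeR's quasi-likelihood test).

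Irf1, the transcription factor induced by interferon gamma, went the other way. Its level was 24.1, 23.6 and 23.5 CPM in NCD and 13.9, 14.5 and 12.1 CPM in HFD. The SD over the NCD libraries was 0.314 CPM (n = 3), and all of them lay above the HFD libraries. Between means of 23.7 and 13.5 CPM it fell by 0.79 on the log2 scale with an SE of 0.17 (adjusted p = 0.0399, edgeR's quasi-likelihood test).

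All 3 calls sat near the threshold. Leaving out HFD 1, HFD 2 or HFD 3 left 0 members called, with 3 to 4 members at an unadjusted p under 0.05. The log2 change was then -0.71 to -0.83 for Irf1, 0.88 to 1.00 for Ifit3 and 1.13 to 1.29 for Xaf1, and the adjusted p ran from 0.124 to 0.225 (edgeR). Xaf1 was lost without NCD 2 (adjusted p = 0.0585, edgeR), with upper-quartile scaling (0.0573) and with a filter at a mean of 50 counts (0.0565). With total counts both Xaf1 and Ifit3 were lost (adjusted p = 0.0636 and 0.0581, edgeR), and the replicate block ended all 3 calls. Without NCD 1, whose share of unassigned reads was highest, Irf1, Ifit3 and Xaf1 were called together with Irgm1, and without NCD 3 only Zbp1 was called.

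The GBP and IRG genes encode GTPases that attack the vacuoles of intracellular microbes. All 7 tested were higher in HFD, with a median log2 change of 0.47 and a range of 0.28 to 0.69, and 0 were called by edgeR (lowest adjusted p = 0.159). In 5 of the 7 the HFD and NCD libraries did not overlap, against 18.2% of all genes tested that were higher without overlap. Under TMM, median-ratio, upper-quartile and total-count scaling all 7 stayed higher.

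Irgm1, a regulator of the other IRG proteins, read 33.8, 24.0 and 29.1 CPM in NCD and 36.5, 46.6 and 35.7 CPM in HFD. The groups stood apart by a small margin, with a log2 change of 0.47, an SE of 0.19 and an adjusted p of 0.159 (edgeR). Gbp3 read 3.35, 2.53 and 4.32 CPM in NCD and 5.58, 5.80 and 4.72 CPM in HFD. Its log2 change of 0.63 with an SE of 0.27 did not pass the test (adjusted p = 0.165, edgeR). Iigp1, the most counted gene of the group, read 89.5, 120.0 and 119.8 CPM in NCD and 107, 167 and 120.4 CPM in HFD, and these ranges overlapped.

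The 3 antigen processing genes among the members were on the other side. Psmb8 and Psmb9, subunits of the immunoproteasome that cuts peptides for presentation, and Tap1, a subunit of the peptide transporter, were all 3 lower in HFD under the 4 scalings, and 0 were called by edgeR (lowest adjusted p = 0.170). Psmb9 read 36.7, 13.3 and 12.0 CPM in NCD and 11.3, 10.7 and 10.6 CPM in HFD. The groups did not overlap, but NCD 1 stood far above the rest: the log2 change was -0.91 with all libraries and -0.20 without NCD 1. Psmb8 read 98.1, 54.8 and 66.3 CPM in NCD and 57.1, 55.5 and 53.6 CPM in HFD, with overlap. Of the 21 other antigen presentation genes in the wider pathway list, 10 were higher and 11 lower in HFD (median log2 change -0.08), and 0 were called by edgeR (lowest adjusted p = 0.0576).

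Among the pathogen sensors, which detect foreign nucleic acid, all 3 were higher in HFD and 0 were called by edgeR; without NCD 1, Dhx58 was lower. Zbp1, a sensor of left-handed nucleic acid that can start cell death, read 2.24, 2.32 and 5.26 CPM in NCD and 5.74, 7.75 and 6.67 CPM in HFD. NCD 3 lay close to the lowest HFD library, and the log2 change of 0.98 had an SE of 0.36 (adjusted p = 0.120, edgeR). Ifih1, the sensor of long double-stranded RNA, read 12.4, 8.44 and 12.8 CPM in NCD and 13.1, 16.8 and 14.2 CPM in HFD, a log2 change of 0.39 with an SE of 0.21.

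Isg15, a ubiquitin-like protein joined to other proteins during the response, read 7.14, 4.64 and 7.11 CPM in NCD and 11.55, 9.38 and 8.05 CPM in HFD. The libraries did not overlap, and the log2 change of 0.61 with an SE of 0.25 did not pass the test (adjusted p = 0.149, edgeR). Irf9, the DNA-binding part of the type I complex, read 27.3, 18.8 and 25.7 CPM in NCD and 21.3, 27.9 and 19.4 CPM in HFD. Its log2 change was -0.05 with an SE of 0.21, inside the spread of the libraries.

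OAS proteins sense double-stranded RNA and, through a second messenger, activate RNase L, and Mx proteins trap viral nucleocapsids. Oas3 read 2.24, 0.844 and 0.822 CPM in NCD and 0.498, 0.531 and 0.244 CPM in HFD, a log2 change of -1.59 with an SE of 0.63 that became -0.93 without NCD 1. Mx1 read 0.086, 0.422 and 0.411 CPM in NCD and 0.929, 0.814 and 0.813 CPM in HFD, a log2 change of 1.502 with an SE of 0.65 that became 1.04 without NCD 1. Neither passed the test (adjusted p = 0.144 and 0.169, edgeR), and NCD 1 was the extreme library in both. Oasl1 had 0 counts in NCD 1 and 6.12 and 3.86 CPM in the other NCD libraries, against 7.502, 9.66 and 6.79 CPM in HFD. Mx2 read 3.78, 2.32 and 3.25 CPM in NCD and 2.79, 3.79 and 2.77 CPM in HFD, without a difference beyond the spread. Cxcl10, a chemokine that draws T cells, had 0 counts in NCD 1 and 0.844 and 1.23 CPM in NCD 2 and 3, against 2.66, 1.91 and 2.56 CPM in HFD (log2 change 1.74, SE 0.82, adjusted p = 0.197, edgeR). The log2 change of Cxcl10 was 1.07 without NCD 1 and 3.05 without NCD 3.

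The remaining members are given by role. All 4 IFIT genes had a log2 change above 0 (median 0.38), though Ifit1 was lower without HFD 2, and they ran from 0.17 for Ifit3b to the called 0.93 for Ifit3; Ifit2 read 0.602, 1.48 and 1.03 CPM in NCD and Ifit3b 5.33, 2.53 and 3.53 CPM, both overlapping HFD. Of the 5 OAS genes tested 3 were higher, and Oas1b, at -1.83 with an SE of 0.95, rested on 3.78 CPM in NCD 1 against 0.211 and 0.493 CPM in NCD 2 and 3. Of the 8 other effectors 5 were higher, with a median log2 change of 0.08 and Xaf1 the only call. Bst2 read 153, 78.9 and 103 CPM in NCD, Rtp4 14.0, 8.65 and 11.4 CPM, and Rsad2 5.42, 5.48 and 4.11 CPM, and each overlapped HFD. Irf7, the main amplifier of type I interferon production, had a log2 change of 0.66 (SE 0.35) that became 0.34 without NCD 1, and Stat2, part of the type I complex, one of 0.17 (SE 0.18) that became 0.07 without NCD 1. Gbp2 at 1.29, 3.59 and 3.70 CPM and Igtp at 19.1, 17.5 and 19.5 CPM in NCD lay below all HFD libraries, without passing the test.

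Counted over the members, 7 had an unadjusted p under 0.05 and were higher and 3 were lower, against 13% and 15.9% of all genes tested. The HFD and NCD libraries did not overlap for 14 members that were higher and 4 that were lower, against 18.2% and 18.9% of all genes. Scaling mattered for directions: with total counts alone the median of all genes moved to -0.24, 20 of the 39 members were higher, and Ifit1 and Ifit3b turned lower, while 29 of 39 members lay above the median of all genes under either scaling. The share of called genes that were higher was 42.9% with TMM and 21.8% with total counts.

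**Figure D2:**
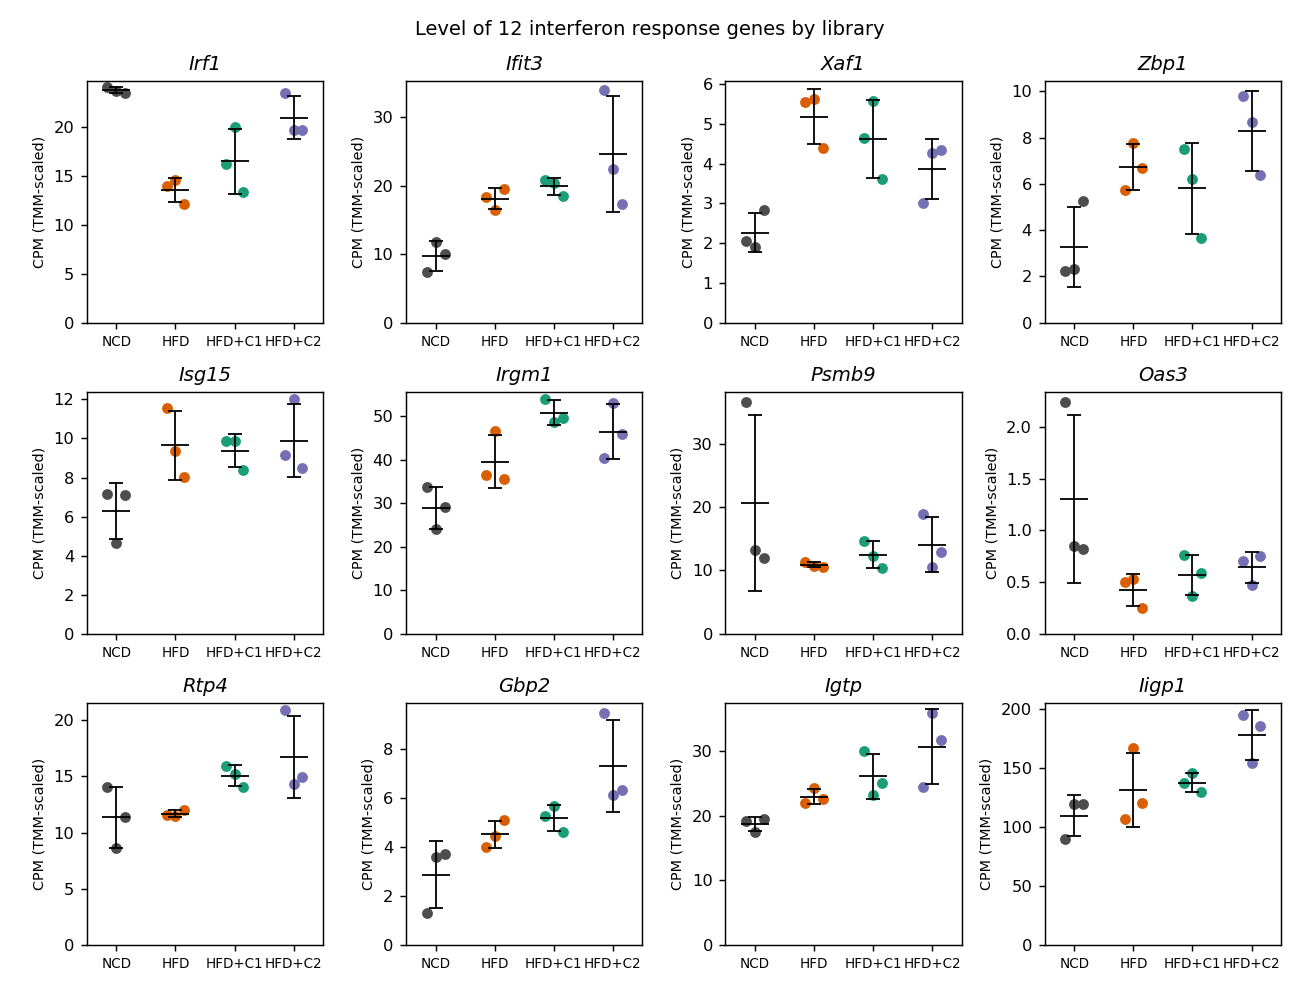
Each panel gives the TMM-scaled CPM of 1 of 12 interferon response genes in each library (points) with the group mean and SD (bars, n = 3). Irf1 is highest in NCD, Ifit3 and Xaf1 are lowest in NCD, and Psmb9 and Oas3 have a single NCD library far above the others.

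**Figure D3:**
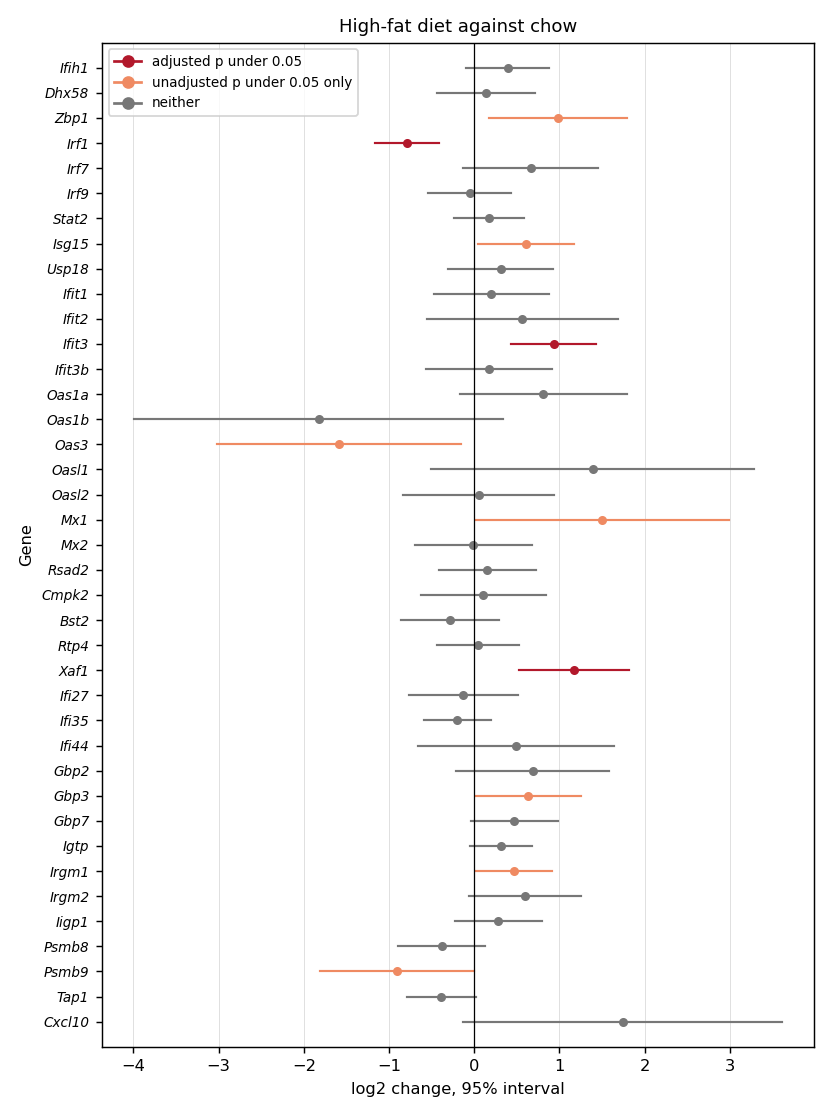
Points are log2 changes of HFD against NCD from edgeR for the 39 tested genes, with 95% intervals. Intervals of Irf1, Ifit3 and Xaf1, drawn in dark red, belong to the genes with an adjusted p under 0.05, and the 3 antigen processing genes lie left of 0.

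The other genes of the pathway were taken from a list of 135 ligands, receptors, sensors, regulators and further targets, of which 130 were found. For the diet 108 were tested, and 2 rose, 1 fell and the rest did not pass the test. These 3 calls are a smaller share than the 6.03% called over all genes, and 0 were left without HFD 1, without HFD 2 or without HFD 3. The count was 11 without NCD 1, 6 without NCD 2, 1 without NCD 3, 17 with DESeq2, 19 with limma voom, 18 with all 12 libraries in 1 fit and 25 with no filter on low counts. In the last 4 of these settings the calls over all genes rose as well, as given in the closing section. The smaller share belongs to the main fit: with no filter, the 25 of 123 tested were a larger share than that called over all genes. The median log2 change was 0.11 with TMM, against -0.02 for all genes, and -0.11 with total counts, against -0.24 for all genes. Leaving out 1 library gave 0.073 (without NCD 1) to 0.26 (without NCD 3). Cxcl9, a chemokine induced by interferon gamma, read 1.81, 1.90 and 3.90 CPM in NCD and 9.39, 10.5 and 9.15 CPM in HFD (log2 change 1.87, SE 0.32, adjusted p = 0.0249, edgeR). Gbp10 rose by 0.81 on the log2 scale (SE 0.19, adjusted p = 0.0475, edgeR), with 6.53, 8.23 and 7.44 CPM in NCD and 12.2, 13.7 and 12.3 CPM in HFD. Ifi47, another immunity-related GTPase, fell by 1.08 (SE 0.24, adjusted p = 0.0441, edgeR), from 24.5, 13.3 and 16.7 CPM to 7.602, 8.88 and 9.03 CPM. Ifi47 had the opposite sign to the 7 GBP and IRG members, and so, without being called, did Gbp4, Gbp5, Gbp8, Gbp11 and Gm4951, while Gbp6, Gbp9, Tgtp1 and Tgtp2 had log2 changes above 0. The ligands themselves were at the edge of detection: Ifnb1 had 0 counts in every library, and Ifng read 1.204 CPM in NCD 1, 0 in the HFD libraries and at most 0.196 CPM elsewhere.

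C1 was compared with the high-fat diet alone in 38 members. Of these, 30 were higher and 8 lower in HFD+C1 (all genes: 51.2% higher), with a median log2 change of 0.14 against 0.0063 for all 13358 genes tested. Without HFD+C1 1 the members' median was 0.081, and leaving out any other library gave 0.11 to 0.20. None was called: edgeR, DESeq2 and limma voom each called 0, where edgeR called 0.0524% of all genes. An unadjusted p under 0.05 was reached by 3 members that were higher and 1 that was lower, against 3.26% and 4.48% of all genes.

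Rtp4, an inhibitor of viral replication that binds RNA, read 11.5, 11.5 and 12.0 CPM in HFD, against 15.9, 15.2 and 14.1 CPM in HFD+C1. The groups did not overlap, and the log2 change was 0.37 with an SE of 0.12 (adjusted p = 0.446, edgeR). Irgm1 read 54.1, 48.8 and 49.6 CPM in HFD+C1, all above the 35.7 to 46.6 CPM of HFD (log2 change 0.36, SE 0.13, adjusted p = 0.462, edgeR). Ifit2, an RNA-binding relative of Ifit3, read 1.39, 1.42 and 1.55 CPM in HFD, against 1.82, 2.74 and 2.29 CPM in HFD+C1 (log2 change 0.65, SE 0.26, adjusted p = 0.564, edgeR). Bst2 read 101, 77.9 and 92.2 CPM in HFD, against 81.3, 75.4 and 61.7 CPM in HFD+C1, with overlap (log2 change -0.31, SE 0.14, adjusted p = 0.637, edgeR).

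By role, all 4 IFIT genes and all 3 antigen processing genes were higher in HFD+C1, while of the 7 GBP and IRG genes 5 were higher. Without HFD 1, Irgm2 and Iigp1 were lower in HFD+C1, and without HFD+C1 3, Gbp3 was higher. The libraries did not overlap for 5 members that were higher and 1, Stat2, that was lower, against 6.36% and 5.99% of all genes. The 3 genes that the diet moved past the threshold had log2 changes under C1 of 0.29 for Irf1, 0.14 for Ifit3 and -0.17 for Xaf1, none of them called. Irf1 was at 0.13 without HFD+C1 2, Ifit3 at 0.072 without HFD 2 and Xaf1 at -0.02 without HFD+C1 3; these values share the HFD libraries with the diet comparison.

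C2 was compared with the high-fat diet alone in 39 members. It gave 33 higher and 6 lower (all genes: 52.2% higher), with a median log2 change of 0.25 against 0.016 for all 13503 genes tested. Again edgeR, DESeq2 and limma voom each called 0 members; edgeR called 0.0222% of all genes. At an unadjusted p under 0.05 there were 5 members higher and 0 lower, against 3.19% and 3.7% of all genes. Without HFD+C2 1 the same 5 reached it, and 2 lower members did too: Bst2 at -0.41 and Ifi27, which went from 0.013 to -0.53 on the log2 scale (adjusted p = 0.440 and 0.265, edgeR).

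Irf1 read 13.9, 14.5 and 12.1 CPM in HFD and 23.4, 19.7 and 19.7 CPM in HFD+C2. The groups stood well apart, with a log2 change of 0.62 and an SE of 0.16, and the adjusted p was 0.695 (edgeR). Gbp2, a GTPase of the guanylate-binding family, read 3.98, 4.46 and 5.08 CPM in HFD and 9.45, 6.10 and 6.32 CPM in HFD+C2. Its log2 change was 0.68 with an SE of 0.23, also without overlap, and 0.46 without HFD+C2 1. Rtp4 read 20.9, 14.3 and 14.98 CPM in HFD+C2, above its 11.5 to 12.0 CPM in HFD (log2 change 0.51, SE 0.18; 0.32 without HFD+C2 1). Igtp, an IRG protein, read 22.0, 24.3 and 22.5 CPM in HFD and 24.3, 35.8 and 31.7 CPM in HFD+C2 (log2 change 0.41, SE 0.17; 0.55 without HFD+C2 1). Ifit3b read 3.32, 5.03 and 4.56 CPM in HFD and 7.30, 6.61 and 5.48 CPM in HFD+C2 (log2 change 0.58, SE 0.22). None of these 5 passed the test, with an adjusted p of 0.695 for each (edgeR).

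All 7 GBP and IRG genes were higher in HFD+C2 under the 4 scalings (median log2 change 0.37), as were all 4 IFIT genes (median 0.50), and 0 of either group were called. Without HFD+C2 1, Gbp3 and Gbp7 were lower than in HFD and the median of the 7 was 0.32, while the 4 IFIT genes stayed higher with a median of 0.18. Ifit1 was lower without HFD+C2 2 or without HFD 1, and Irgm2 was lower without HFD+C2 3. The libraries did not overlap for 7 members that were higher and for Xaf1, which was lower, against 7.01% and 6.64% of all genes. HFD+C2 1, which stands apart in unassigned reads and in its counts over all genes, was the highest of the 12 libraries for 14 of the 41 members. The share of all genes that were highest there was not counted, so the 14 cannot be read as a trait of the members. Without HFD+C2 1 the median log2 change of the members was 0.13. In Ifit3 this library read 34.0 CPM against 22.5 and 17.4 CPM in its group, and in Gbp3 11.05 CPM against 5.16 and 4.94 CPM.

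**Figure D4:**
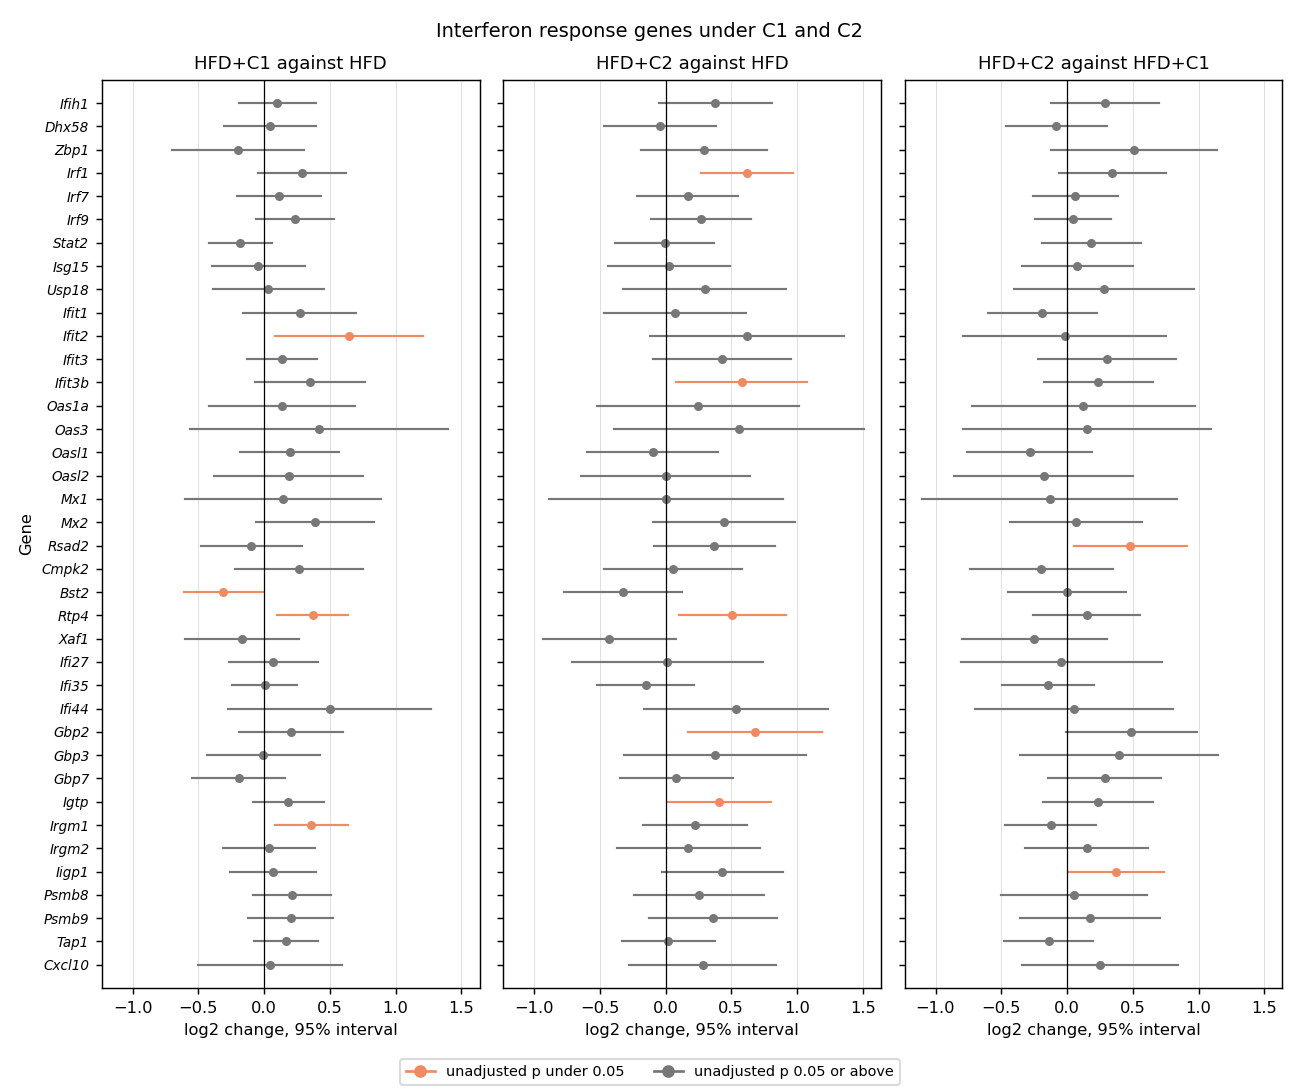
Points are log2 changes with 95% intervals from edgeR for the 38 genes tested in all 4 comparisons, for C1 and C2 against HFD and for C2 against C1. Orange marks an unadjusted p under 0.05, which 4, 5 and 2 genes reached, and no gene had an adjusted p under 0.05.

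C1 and C2 were given at the same dose for the same time, so the pair could be compared directly in 40 members. Of these 26 were higher and 14 lower in HFD+C2 than in HFD+C1 (all genes: 51.7% higher), with a median log2 difference of 0.10 against 0.012 for all 13229 genes. Without HFD+C2 1 the median was 0.019 and 21 of 39 members were higher. It was 0.043 without HFD+C1 3, 0.16 without HFD+C2 2 and 0.18 without HFD+C2 3, and 0.022 with limma voom. With total counts it was 0.022 too, but the median of all genes moved to -0.062. The difference between members and all genes was 0.084 with total counts, 0.089 with TMM and 0.023 with limma voom. The test called 0 members and 0% of all genes, and DESeq2 and limma voom also called 0 members. Only 2 members, Rsad2 and Iigp1, had an unadjusted p under 0.05, both higher, against 2.8% of all genes that were higher and 1.79% that were lower.

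Rsad2, or viperin, makes a nucleotide that ends viral RNA chains. It read 5.41, 4.98 and 4.78 CPM in HFD+C1 and 7.599, 7.74 and 5.82 CPM in HFD+C2, without overlap. The log2 difference was 0.48 with a 95% interval of 0.05 to 0.91 (adjusted p = 0.841, edgeR), and without HFD+C2 1 it was 0.42 with an interval of -0.0064 to 0.85. Iigp1 read 138, 146 and 129 CPM in HFD+C1 and 195, 154 and 186 CPM in HFD+C2 (log2 difference 0.37, interval 0.01 to 0.73, adjusted p = 0.841, edgeR). Gbp2 was the remaining gene of the 3 without overlap, with a log2 difference of 0.49 and an interval of -0.01 to 0.99, which became 0.26 and -0.15 to 0.66 without HFD+C2 1; 5.96% of all genes were higher without overlap and 6.09% lower.

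For the other members the intervals held 0, and their width shows what could have been missed. The interval was -0.25 to 0.34 for Irf9, -0.45 to 0.45 for Bst2, -0.06 to 0.75 for Irf1, -0.79 to 0.76 for Ifit2 and -1.41 to 1.81 for Oas1g. Without HFD+C2 1 the interval for Ifit2 was -1.08 to 0.23, and Ifi27 and Igtp reached an unadjusted p under 0.05, with log2 differences of -0.60 and 0.37 (adjusted p = 0.686 and 0.780, edgeR). A difference of the size that the diet gave Ifit3 lies outside the interval for Irf9 and inside the one for Oas1g.

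Most macrophage markers were higher under both compounds. The summed level of 6 Kupffer cell markers was 131 to 170.4 CPM in HFD, 209 to 277 CPM in HFD+C1 and 164 to 401 CPM in HFD+C2, with 401 CPM in HFD+C2 1; with C1 the ranges stood apart and with C2 they overlapped. The 6 markers were all higher under each compound, 5 of them with C1 and 4 with C2 at an unadjusted p under 0.05, and 0 were called by edgeR (lowest adjusted p = 0.0984 with C1 and 0.695 with C2). For 7 monocyte and macrophage markers the sum was 44.5 to 73.6 CPM in HFD, 80.7 to 105 CPM in HFD+C1 and 77.7 to 102 CPM in HFD+C2. Of the 6 tested, 4 were higher and 2 lower with C1 (from -0.55 to 0.97 on the log2 scale), and 5 were higher and 1 lower with C2 (-0.11 to 0.80). Between the diets these 2 sums overlapped, with 145 to 248 CPM and 47.1 to 62.8 CPM in NCD. Other marker lists leaned 1 way as well. With C1 all 5 erythroid markers were lower (median log2 change -0.60), 3 of them at an unadjusted p under 0.05 (edgeR). With C2 all 5 endothelial markers were higher (median 0.25), and 0 in either list were called. The part of these cell type markers in the values of the interferon genes was not tested.

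By library, the median member lay at -0.26, -0.34 and -0.23 on the log2 scale in NCD 1 to 3 relative to the HFD mean, at -0.00014, 0.11 and -0.07 in HFD, at 0.21, 0.17 and 0.0064 in HFD+C1 and at 0.35, 0.17 and 0.11 in HFD+C2. The NCD libraries lay below all others, and HFD+C1 3 lay inside the range of HFD. The group with the highest mean was HFD+C2 for 21 of the 41 members, NCD for 11, HFD+C1 for 8 and HFD for 1, and the lowest was NCD for 26. All genes were not ranked in this way, so the ranks cannot be read as a trait of the members. Single libraries weigh on these means: HFD+C2 1 was the highest library for 14 members and NCD 1 for 9. Within a group the median coefficient of variation of the members was 27.3% in NCD, 13.6% in HFD, 12.0% in HFD+C1 and 19.7% in HFD+C2, close to that of all genes in each group (28.8%, 13.1%, 12.8% and 20.2%).

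**Figure D5:**
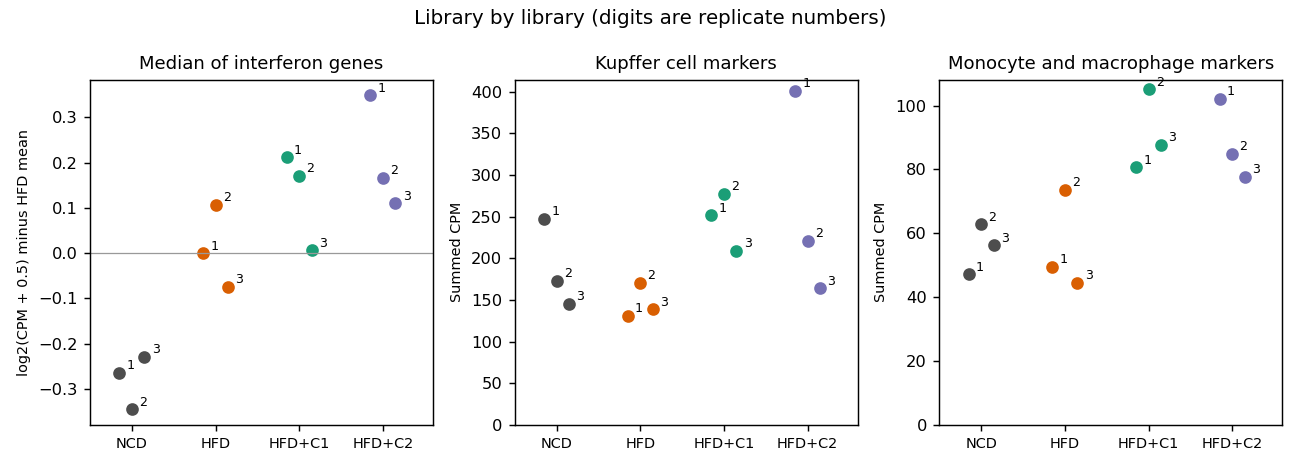
The left panel gives, for each library, the median over 38 interferon response genes of log2(CPM + 0.5) minus the HFD mean. The other panels give the summed CPM of the Kupffer cell and the monocyte and macrophage markers, with replicate numbers beside the points; HFD+C2 1 is highest in the first 2 panels.

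In the wider pathway list 110 genes were tested for each compound and 0 were called by edgeR for C1, for C2 or between them. With C1, 6 were higher and 1 lower at an unadjusted p under 0.05, against 3.26% and 4.48% of all genes. Without HFD 2 the 6 became 16, and without HFD+C1 3 they became 14. With C2, 14 were higher and 0 lower, against 3.19% and 3.7% of all genes, and the 14 became 2 without HFD 1 and 19 without HFD+C2 1. The median log2 change was 0.15 with C1 and 0.19 with C2, against 0.0063 and 0.016 over all genes. Cd74, the invariant chain of MHC class II, read 42.9, 42.7 and 42.3 CPM in HFD; with C1 it read 64.0, 64.5 and 53.0 CPM and with C2 53.4, 64.8 and 63.3 CPM. The gene was singled out after its values were seen, and had adjusted p-values of 0.212 and 0.695 (edgeR).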

How the data were processed

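RNA from 12 mouse liver libraries was sequenced. Per the labels' protocols, RNA was taken up with Tri Reagent and libraries were made with Advanta RNA-seq XT kits for Fluidigm JUNO. The submitters' processing notes name Trimmomatic 0.39, STAR 2.7, DESeq2 and the build mm10; annotation, strand use and filters are not given in the sources used here. The authors deposited read counts per gene in 3 tables, 1 per comparison with HFD. Though the tables' names say normalized, the deposited counts are whole numbers with unequal totals, and the HFD columns were identical in all 3 (0 cells differ), so they were treated as raw counts. The 4 rows that name no gene, with 27.3% to 58.2% of a library's reads, were kept out.

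Each comparison used its own 6 libraries, TMM scaling, a filter that kept genes averaging 10 counts or more, and edgeR 4.0.16's quasi-likelihood test (R 4.3.3), with Benjamini-Hochberg adjustment over all genes tested and a call at an adjusted p under 0.05. SE is the log2 change over the root of F. All 41 members were tested in at least 1 comparison and 38 in all 4; Oas1g and Oas2 missed the filter for the diet, and Oas1b too for C1.

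Values per library are given for members called, for those with an unadjusted p under 0.05, and for the most counted member of each role. Of the other pathway genes, those called for the diet are named; an item is not reported here. The members and lists were chosen with earlier results of these data known. Alternatives were other scalings, DESeq2 1.42.0, limma 3.58.1 voom weighted by library, dropping the filter or raising it to 50 counts, 1 fit of all 12 libraries, the replicate number as a block, and leaving out each library. Promoters came from RefSeq (GRCm38.p6) and transcripts from GENCODE M21, both matched by symbol.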

Additional observations from a re-analysis of the deposited data

Results flagged for a closer look

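Reads outside the gene counts were more frequent in 1 treated library than in the high-fat diet controls. In HFD+C2 1, 47.1% of reads were not counted in genes, against 31.9% to 32.9% in the HFD libraries. Mitochondrial ribosomal RNA made up 2.95% of its gene reads, against 0.571% to 1.54% in the other libraries.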

How the results depend on the processing

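For the diet, the 3 called members became 1 with total counts alone, 8 with no filter on low counts and 0 with a replicate block; leaving out 1 library gave 0 to 4. Xaf1 was lost with upper-quartile scaling and with a mean of at least 50 counts. Irf1 was the call left with total counts, and it was not among the 8. The members' median log2 change of 0.28 became 0.076 with total counts, 0.40 with no filter, 0.13 with a mean of at least 50 counts and 0.14 to 0.35 without 1 library. The median of all genes moved with total counts as well, and the difference between members and all genes was 0.30 with TMM and 0.32 with total counts. That difference was 0.15 with a mean of at least 50 counts, 1.03 with no filter and 0.185 to 0.373 without 1 library. Diet calls over all genes (836) became 2298 with DESeq2, 3211 with limma voom, 4493 with no filter, 524 with at least 50 counts, 2418 with all 12 libraries in 1 fit, 483 with the replicate block and 23 to 1838 without 1 library. For C1 the 7 calls became 72, 50 and 206 with DESeq2, voom and no filter, 0 with all 12 libraries, 36 with the replicate block and 2 to 102 without 1 library, and the members' median was 0.081 to 0.20 without 1 library. For C2 the 3 calls became 35, 54 and 152, 0 with all 12 libraries and 0 to 27 without 1 library, and the members' median was 0.13 to 0.35 without 1 library. Between the compounds, 0 calls became 3 with DESeq2, 162 with no filter and 0 or 1 without 1 library, and the members' median was 0.019 to 0.18 without 1 library. The cause of these shifts was not tested. Member calls under C1, under C2 and between them were 0 in every alternative run, and no member with an unadjusted p under 0.05 in a comparison changed sign there. Single values were less stable: leaving out 1 library turned the sign or moved the log2 change by over 1.5 times for 26 of 39 members for the diet, 31 of 38 for C1, 34 of 39 for C2 and 38 of 40 between the compounds, and turned the sign of 8, 14, 17 and 19. Same-numbered libraries correlated at -0.14 to 0.21 after group means were removed. With 3 libraries per group such values cannot exclude a link between same-numbered libraries. NCD 2 had the fewest reads in genes, and Oas1b, Oas1g, Oas2, Oas3 and Mx1 had low counts. How far this bears on the diet test was not tested.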
